A study of Homo sapiens with 6 samples.

Results

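The genes described here are the olfactory receptor (OR) genes of human chromosome 11. Members were the protein-coding genes of the chromosome whose symbol is OR followed by a family number, letters and a member number. There were 177 such genes among 20163 protein-coding genes in the annotation used for H3K27Ac (GRCh37) and 168 placed genes among 19709 in the one used for H3K4me3 (GRCh38), and 165 symbols were in both. The rule used the name and the chromosome and no measured value. Peaks came from ChIPmentation, a form of ChIP-seq in which Tn5 transposase tags the precipitated chromatin on beads. All samples were OCI-AML3, an established human cell line from acute myeloid leukemia (AML) with a mutant NPM1 allele (mtNPM1), for which the study also names DNMT3A and NRAS mutations. Cells were transfected with either of a pair of CRISPR guides, sgNeg as control or sgNpm1A against mtNPM1, and were cultured for 3 days per the labels, whereas the study's own text gives a longer time. Each guide had 1 library for H3K27Ac, 1 for H3K4me3 and 1 input, so that the 6 samples made 6 groups, of which the 2 inputs were not analysed here. The comparison asked whether a gene family taken as silent in blood cells carried these marks at its promoters, and whether this differed between guides. Expression of the members was not read here.

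An OR gene encodes a G protein-coupled receptor in an intronless coding region. A mature olfactory sensory neuron transcribes a single OR allele, and its other OR genes stay in closed heterochromatin. The families OR51, OR52 and OR56 are class I receptors, a group shared with fish, and the remaining families are class II. H3K27Ac is a mark of active promoters and enhancers and H3K4me3 a mark of active promoters, most of which are rich in CG dinucleotides.

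The sequences below show the bases around annotated gene starts, with each CG in capitals. They are read 5′ to 3′ on the strand of the gene, on GRCh37, from 250 bases before to 50 bases after the start of the gene record. OR52D1 (chr11:5509665-5509964, plus strand) and OR51G1 (chr11:4945520-4945819, minus strand) had a peak in all 4 lists, and both stretches hold 0 CG. The highest peaks lay outside the bases shown, beginning 132 to 415 bp after the start at OR52D1 and 150 to 528 bp at OR51G1. Within 1 kb of the start, OR52D1 holds 10 CG and OR51G1 holds 23. OSBP (chr11:59383198-59383497, minus strand), which encodes a sterol-binding protein, is no member but lies inside an OR cluster and holds 27 CG, for contrast.
OR52D1: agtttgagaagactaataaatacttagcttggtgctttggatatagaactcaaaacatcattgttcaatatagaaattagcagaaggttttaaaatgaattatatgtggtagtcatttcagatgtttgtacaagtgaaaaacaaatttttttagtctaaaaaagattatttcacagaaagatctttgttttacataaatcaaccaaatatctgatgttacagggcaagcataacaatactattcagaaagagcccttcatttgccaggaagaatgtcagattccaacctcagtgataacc
OR51G1: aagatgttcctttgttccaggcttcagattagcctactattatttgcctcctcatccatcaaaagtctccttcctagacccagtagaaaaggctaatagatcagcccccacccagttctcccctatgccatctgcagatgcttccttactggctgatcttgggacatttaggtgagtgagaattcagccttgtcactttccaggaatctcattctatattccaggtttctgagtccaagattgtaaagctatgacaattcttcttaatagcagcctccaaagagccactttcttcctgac
OSBP: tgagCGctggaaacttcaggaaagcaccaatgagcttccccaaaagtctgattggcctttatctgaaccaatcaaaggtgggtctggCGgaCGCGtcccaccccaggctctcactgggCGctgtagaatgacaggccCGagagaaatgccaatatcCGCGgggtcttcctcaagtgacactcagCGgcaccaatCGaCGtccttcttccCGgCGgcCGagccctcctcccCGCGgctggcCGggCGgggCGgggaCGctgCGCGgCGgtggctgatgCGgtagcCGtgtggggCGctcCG
The G and C content was 30.7% for OR52D1, 44% for OR51G1 and 64% for OSBP. The last sequence is the sgNpm1A H3K27Ac peak at OR51V1 (chr11:5221575-5221803, minus strand, 229 bp), the highest OR peak of that list by fold enrichment. It lies within the coding sequence of the gene, holds 52.0% G and C and 1 CG.
OR51V1 peak: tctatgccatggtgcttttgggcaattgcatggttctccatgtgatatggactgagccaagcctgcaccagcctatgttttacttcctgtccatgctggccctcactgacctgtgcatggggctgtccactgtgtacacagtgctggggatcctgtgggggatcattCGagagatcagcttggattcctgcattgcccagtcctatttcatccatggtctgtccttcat

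The lists held 327715 peaks for sgNeg H3K27Ac, 317059 for sgNpm1A H3K27Ac, 353628 for sgNeg H3K4me3 and 106641 for sgNpm1A H3K4me3. Read depth was not given in the lists. No group had a replicate, so no spread between replicates and no p-value can be given, each comparison of guides describes a pair of libraries, and confidence intervals cover counting error only. Myeloid markers were read for the identity of the cells, which they cannot narrow to a single AML line. All 8 myeloid leukemia markers had a promoter peak in sgNeg H3K27Ac and in sgNeg H3K4me3, beside 79.1 and 68.3% of all coding genes. Their median percentile within these lists was 99.6 and 98.7 (0 for no peak). In sgNpm1A H3K27Ac 6 of 8 had a promoter peak, with a median percentile of 50.3, and in sgNpm1A H3K4me3 0 of 8. Of all coding genes, 57.0 and 9.49% had one in these lists. The lower counts in sgNpm1A were thus not particular to myeloid promoters. The part of this difference between lists in the OR results was not tested. Of the 4 olfactory sensory neuron markers, 2, 3, 2 and 1 had a peak, in the order in which the lists were first named. It was 3, 2, 2 and 1 of 3 T cell markers, and 3, 2, 0 and 0 of 3 B cell markers. In sgNeg H3K27Ac the T and B cell markers had median percentiles of 52.8 and 66.8. A peak in that list thus did not by itself set the myeloid markers apart, though they ranked higher. In their names, the H3K27Ac lists hold the tag OCI2 and the H3K4me3 lists the tag OCI3, while every label gives OCI-AML3. What the tags stand for was not stated, and OCI-AML2 is a separate AML line that the study also uses. Were OCI2 that line, the H3K27Ac values below, and any comparison of the marks, would not be of OCI-AML3 alone.

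OR promoters carried a peak less often than other promoters of the chromosome in 3 of the 4 lists, and in sgNpm1A H3K4me3 the interval of their share held that of the others. Promoters reached 1 kb to either side of any transcript start. In sgNeg H3K27Ac, 41 of 177 OR genes had a promoter peak, 23.2% (95% Wilson interval 17.6 to 29.9), against 83.2% of the other 1140 coding genes of chromosome 11 and 79.1% of all coding genes. In sgNpm1A H3K27Ac, 66 of 177 had one, 37.3% (30.5 to 44.6), against 63.3% of the others and 57.0% of all. In sgNeg H3K4me3 it was 39 of 168, 23.2% (17.5 to 30.2), against 67.3% of the other 1122 genes and 68.3% of all. In sgNpm1A H3K4me3 it was 14 of 168, 8.33% (5.03 to 13.5), against 9.0% of the others and 9.49% of all. The share of OR genes was thus 0.279, 0.589, 0.345 and 0.926 times that of their chromosome. Neighbouring genes can share a peak, so the intervals treat as independent what is not.

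The share was next set against every position of the chromosome. Of all windows of that length on chromosome 11, 1 for each base, 23.9% touched a peak in sgNeg H3K27Ac, 24.7% in sgNpm1A H3K27Ac, 18.3% in sgNeg H3K4me3 and 6.98% in sgNpm1A H3K4me3. The OR share was 0.968, 1.51, 1.27 and 1.19 times these values. The interval of the OR share held the value of the windows in 3 lists and lay above it in sgNpm1A H3K27Ac. Windows moved 20 kb to either side of each OR start, which sit in the same neighbourhood, touched a peak in 14.1% of cases in sgNeg H3K27Ac, 20.6% in sgNpm1A H3K27Ac, 14.9% in sgNeg H3K4me3 and 6.25% in sgNpm1A H3K4me3. These values were below the OR share in all 4 lists. They lay below its interval in the first 3 lists and inside it in sgNpm1A H3K4me3 (5.03 to 13.5). The other genes have more starts, so they cannot be set against a single window. For a comparison matched for starts, chosen after seeing the data, the peaks of the chromosome were moved around it by every possible distance and the promoters of each gene were kept. The OR share was then 0.893, 1.38, 1.24 and 1.16 times the mean over all moves, and that of the other genes 1.93, 1.36, 3.25 and 1.11 times. On this measure OR genes and other genes were close in both sgNpm1A lists.

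**Figure D1:**
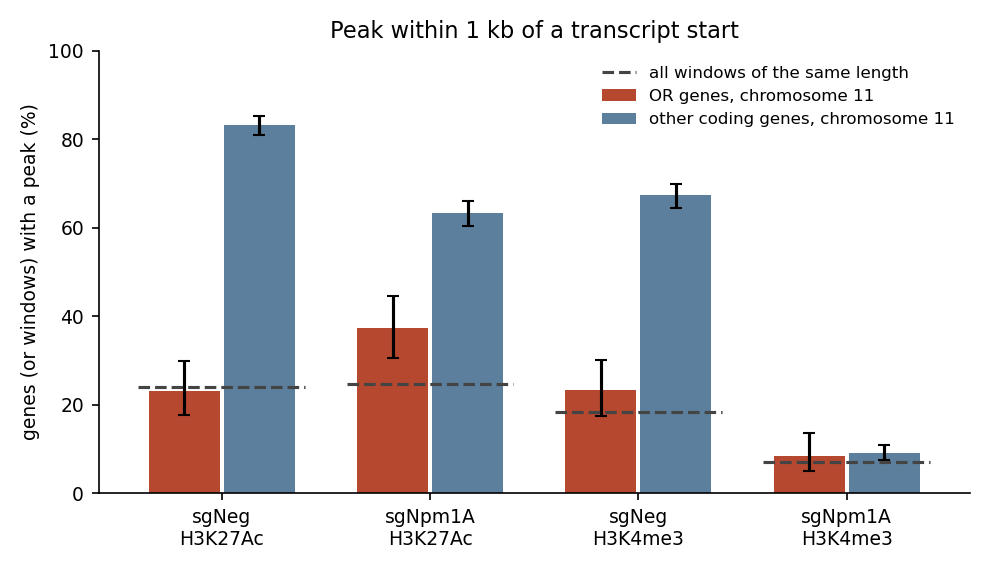
Share of genes with a peak within 1 kb of a transcript start (vertical axis, percent) in each of the 4 lists (horizontal axis), for OR genes and other coding genes of chromosome 11, with 95% Wilson intervals. Dashed lines give the share of all single windows of that length, whereas the other genes have a median of 6 starts on GRCh37. In sgNpm1A H3K27Ac the OR bar lies above its line (37.3 against 24.7%), and in the other lists the OR interval holds the line.

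The number of annotated starts entered the comparison for H3K27Ac. Of the 177 OR genes, 141 had 1 transcript start, whereas the other genes had a median of 6. In 82 of the 177, a transcript start was annotated at the start codon. The bases just after such a start are coding sequence, and the start may not mark a promoter. With the start of the gene record as the only start, 20.3% of OR genes and 73.3% of the others had a peak in sgNeg H3K27Ac, a ratio of 0.277. In sgNpm1A H3K27Ac the shares became 31.6% and 33.9%, a ratio of 0.932. The lower share of OR genes in that list therefore depended on which starts were counted.

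Around the starts, OR genes had a small, narrow rise of peak cover on the gene side. In sgNpm1A H3K27Ac the cover of OR genes was 10.96% in the first 500 bases after the start, against 3.30% in the flanks up to 10 kb. It reached 5.71% between 500 and 1000 bases after the start in sgNeg H3K27Ac (flanks 1.82%), 4.51% in the first 500 bases in sgNeg H3K4me3 (flanks 1.19%) and 3.06% between 500 and 1000 bases in sgNpm1A H3K4me3 (flanks 0.598%). The other genes rose to 54.8% in sgNeg H3K27Ac and to 35.6% in sgNeg H3K4me3. In sgNpm1A H3K27Ac their cover in the 500 bases on either side of the start was 7.08%, below that of their flanks, 11.3%, and below the 7.54% of OR genes. In sgNpm1A H3K4me3 it was 1.94% against 2.35% in the flanks.

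**Figure D2:**
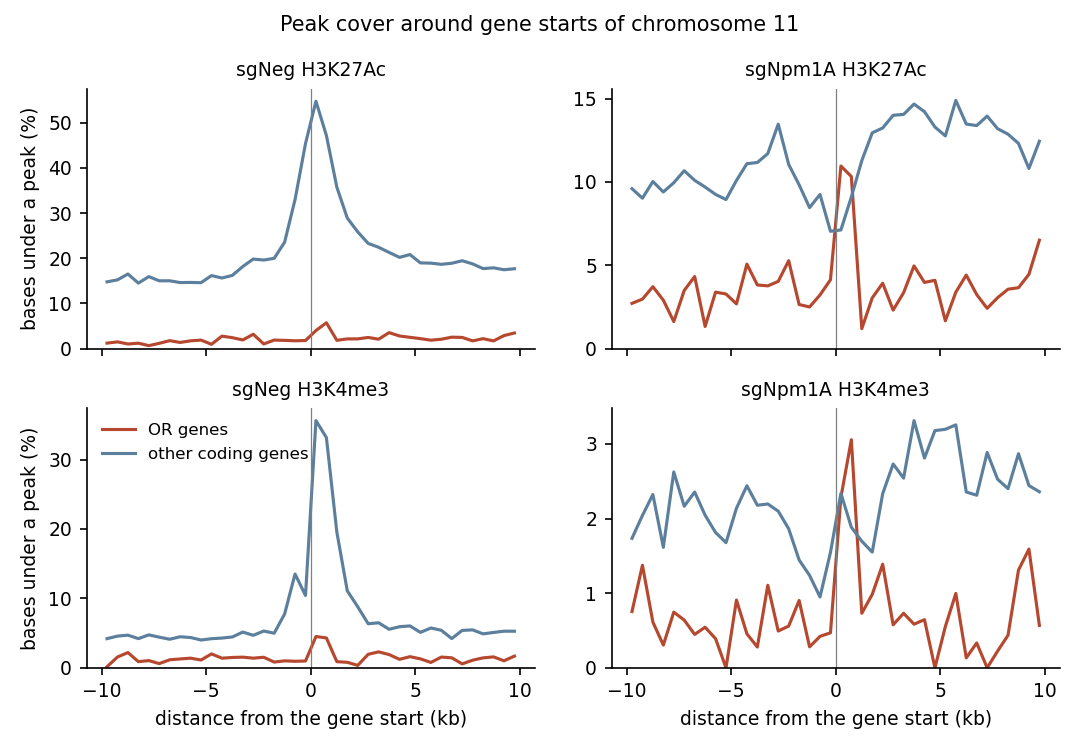
Share of bases under a peak (vertical axis, percent, scaled separately in each panel) by distance from the gene start (horizontal axis, kb, downstream to the right) in steps of 500 bases, for OR genes and other coding genes of chromosome 11. OR genes have a narrow maximum just after the start in each list, 10.96% in sgNpm1A H3K27Ac, where the other genes have a dip.

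Most OR peaks lay inside the annotated gene. On GRCh37, 82 of the 177 OR genes had a transcript start at the start codon, and the part of this annotation in the position of peaks was not tested. The highest promoter peak overlapped the coding sequence of its own gene in 30 of 41 OR genes (73.2%) in sgNeg H3K27Ac and 50 of 66 (75.8%) in sgNpm1A H3K27Ac. It overlapped the gene record in 31 of 39 in sgNeg H3K4me3 and 12 of 14 in sgNpm1A H3K4me3. Downstream of the nearest start lay 29, 43, 30 and 10 of these peaks, upstream 10, 12, 8 and 2, and across it 2, 11, 1 and 2, in the order of lists given above. The OR51V1 sequence printed above is such a peak within a coding exon.

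The OR peaks were narrower and lower in rank than the promoter peaks of other genes. Their median width was 276 bp in sgNeg H3K27Ac, 432 bp in sgNpm1A H3K27Ac, 196 bp in sgNeg H3K4me3 and 369 bp in sgNpm1A H3K4me3. Promoter peaks of the other genes of the chromosome had medians of 1618.5, 549.5, 694 and 434 bp, and all peaks of each list 358, 415, 192 and 407 bp. The narrowest peak of each list was 110, 140, 110 and 245 bp wide, and the lowest fold was 2.54, 2.66, 2.50 and 2.80. The lists thus have unlike floors, and the part of these in the differences between guides was not tested. The median fold enrichment, the ratio of pileup to background as deposited, was 2.72, 2.92, 3.33 and 3.18 for OR genes and 3.90, 3.11, 6.03 and 3.56 for the others. Because fold enrichment is scaled within a list, each gene was also given the percentile of its highest peak among all peaks of the list. The median percentile of OR genes with a peak was 40.8 in sgNeg H3K27Ac, 47.2 in sgNpm1A H3K27Ac, 49.6 in sgNeg H3K4me3 and 17.7 in sgNpm1A H3K4me3, against 95.9, 70.0, 97.2 and 43.9 for the others. All peaks on chromosome 11 had medians of 46.9, 45.6, 49.6 and 43.9, so in the first 3 lists OR peaks ranked near a typical peak of the chromosome. At or above the 90th percentile were 1 of 41, 11 of 66, 0 of 39 and 1 of 14 OR genes with a peak. Among the others it was 613 of 948, 114 of 722, 516 of 755 and 6 of 101. In both sgNpm1A lists the OR share at that rank was thus not below that of the others.

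At a q-value under 0.01, 1.69, 13.0, 21.4 and 7.14% of OR genes were left, and 62.9, 33.3, 65.2 and 8.82% of the others. At a q-value under 1e-05, 1 OR gene was left in sgNeg H3K27Ac, 0 in sgNpm1A H3K27Ac, 4 in sgNeg H3K4me3 and 1 in sgNpm1A H3K4me3. Shares of 35.7, 0.789, 50.6 and 0.980% of the other genes were left. In sgNeg H3K4me3 the 39 OR genes shared 8 distinct fold values, from 2.70 to 4.16, since pileups are whole numbers of fragments. In sgNpm1A H3K4me3 the 14 OR genes shared 8 values from 2.80 to 4.83. Genes with the same value cannot be ranked at this depth.

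**Figure D3:**
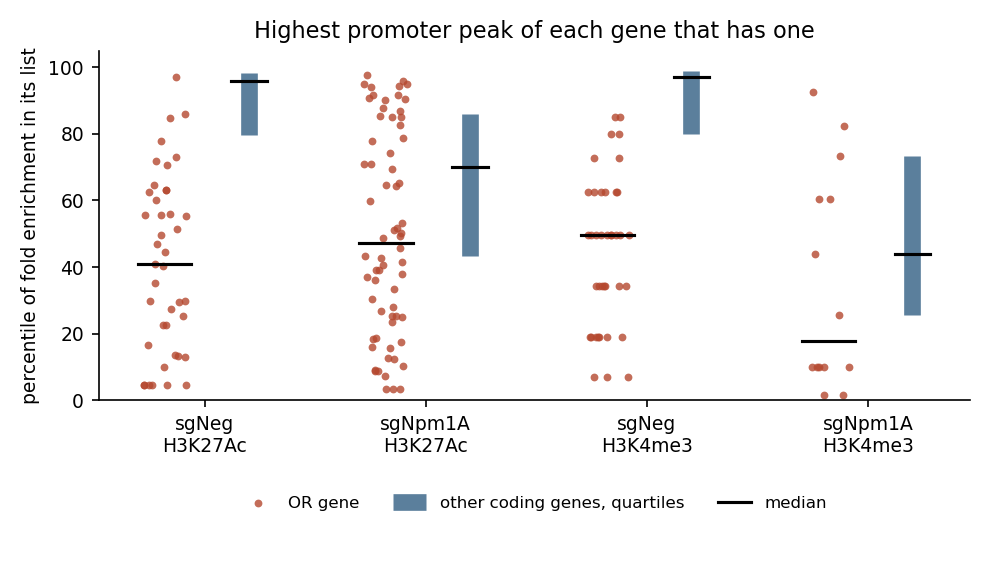
Percentile of fold enrichment within its list (vertical axis) of the highest promoter peak of each OR gene that has one (points, spread sideways for clarity) in each of the 4 lists (horizontal axis), with the quartiles of the other coding genes of chromosome 11 that have one (blue bars) and medians (black lines). The OR medians of 40.8, 47.2, 49.6 and 17.7 lie below those of the other genes in each list.

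For H3K27Ac, the guides differed at OR genes in the direction opposite to that at other genes. A promoter peak was present in both lists for 31 OR genes, in sgNeg alone for 10 (5.65%, against 26.9% of all coding genes), in sgNpm1A alone for 35 (19.8%, against 4.86% of all coding genes) and in neither for 101. In 26 of the 31 the peaks of both lists overlapped. Among the other genes of the chromosome, 652 had a peak in both lists, 296 in sgNeg alone and 70 in sgNpm1A alone. With a percentile of 0 for no peak, 55 of the 76 OR genes with any peak were higher in sgNpm1A and 21 lower, a median change of 22.98 percentile points, against −26.5 for the 1018 other genes. The ratio of sgNpm1A to sgNeg in the number of genes with a peak was 1.61 for OR genes and 0.762 for the others. It was 1.15 for OR genes of other chromosomes and 1.22 for the 23 other coding genes inside OR clusters. The direction was thus not particular to the members. At a q-value under 0.01 the split of the members was 1 in both, 2 in sgNeg alone and 22 in sgNpm1A alone. At a q-value under 1e-05 it turned to 1 in sgNeg alone and 0 in sgNpm1A alone.

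The highest OR peak of sgNeg H3K27Ac was at OR52W1 (ENSG00000175485, gene record chr11:6220454-6221416), 4.36-fold over 9872 bp (chr11:6217009-6226880, percentile 97.2). It also reached a start of C11orf42, a gene outside the family. In sgNpm1A the peak there was 1597 bp wide and 3.22-fold (percentile 78.8). Without it the share of OR genes in sgNeg H3K27Ac was 22.7%, and without OR56A3, whose peak reached a start of TRIM5, that in sgNpm1A H3K27Ac was 36.9%. The next in sgNeg were OR51D1 (3.20-fold), OR2AT4 (3.17), OR51V1 (3.04) and OR52D1 (2.98), with percentiles of 86.1, 84.8, 77.9 and 73.1. OR52N4 had the widest peak after OR52W1 and OR51D1, 747 bp.

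In sgNpm1A H3K27Ac, OR51V1 (ENSG00000176742) led with 3.99-fold over 229 bp (percentile 97.8), and the peaks of both guides overlapped there. It was followed by OR51M1 (3.76-fold), OR5A1 (3.69), OR56A4 (3.68) and OR51G1 (3.64), at percentiles of 96.0, 95.1, 94.9 and 94.3. OR51M1 and OR5A1 had no promoter peak in sgNeg H3K27Ac, and OR56A4 had one at the lowest fold of that list (percentile 4.59). OR51G1 had one at 49.6. OR5A1, the receptor for the floral odorant β-ionone, had its peak upstream of the gene (chr11:59203548-59203730), unlike OR51V1, OR51M1, OR56A4 and OR51G1, whose peaks lay in the coding sequence. The widest were OR51D1 (2293 bp), OR52W1 (1597 bp) and OR51S1 (1595 bp).

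For H3K4me3, both sets of genes had fewer peaks in sgNpm1A, as did the list as a whole. The narrowest peak of that list was 245 bp wide, against 110 bp in sgNeg H3K4me3. Of 168 OR genes, 8 had a promoter peak in both lists, 31 in sgNeg alone (18.5%, against 60.4% of all coding genes), 6 in sgNpm1A alone (3.57%, against 1.67% of all coding genes) and 123 in neither. In 6 of the 8 the peaks overlapped. The number of OR genes with a peak in sgNpm1A was 0.359 times that in sgNeg, and that of the other genes was 0.134 times. Of 45 OR genes with any peak, 36 had a lower percentile in sgNpm1A and 9 a higher one, a median change of −34.4 points against −96.8 for the other genes.

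OR10W1 (RefSeq gene 81341, peak chr11:58267335-58267720) and OR52D1 (390066, peak chr11:5488887-5489312) shared the highest fold of sgNeg H3K4me3, 4.16, on GRCh38, with percentiles of 85.2. OR51V1 and OR5M11 followed with 3.95, and OR10G6 and OR5B17 with 3.74. The widest were OR52D1 (426 bp), OR51F1 (411 bp) and OR52M1 (401 bp). In sgNpm1A H3K4me3, OR52B6 (340980, peak chr11:5580812-5581881) stood above the rest with 4.83-fold over 1070 bp (percentile 92.6). Its peak in sgNeg was 211 bp wide and 3.54-fold (percentile 62.6), while no peak of the sgNpm1A list was narrower than 245 bp. Then came OR9Q1 (4.32-fold), OR51I1 (4.07) and OR4X2 and OR52D1 (both 3.82). OR9Q1 had no peak in sgNeg H3K4me3 or in the H3K27Ac lists, and the widest after OR52B6 were OR4D10 (471 bp) and OR4X2 (449 bp).

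Few members were marked in all 4 lists, and the share of all coding genes so marked was not computed. A peak in all 4 needs one in both H3K4me3 lists, which 4.76% of OR genes and 7.81% of all coding genes had. Of the 165 OR genes placed on both builds, 82 had no promoter peak in any list, 37 had one in 1 list, 27 in 2, 14 in 3 and 5 in 4. The 5 were OR10W1, OR52D1, OR51G1, OR4X2 and OR10S1. OR10W1 had percentiles of 63.0 and 85.5 in the H3K27Ac lists (sgNeg, then sgNpm1A) and 85.2 and 25.6 in the H3K4me3 lists. OR52D1 had 73.1 and 18.6, then 85.2 and 60.5. OR51G1 had 49.6 and 94.3, then 49.6 and 9.84. OR4X2 had 35.3 and 43.4, then 49.6 and 60.5, and OR10S1 63.0 and 90.9, then 19.1 and 9.84. Each of the 5 was under the 50th percentile in at least 1 list. Among those in 3 lists, OR51V1, OR52B6, OR52W1, OR5M11 and OR5B2 had the highest mean percentiles. In sgNeg, 19 OR genes had a peak for both marks, of 38 with H3K27Ac and 39 with H3K4me3. In sgNpm1A it was 9, which is 14.5% of those with H3K27Ac and 64.3% of those with H3K4me3. Of all coding genes, 57.0 and 9.49% had a peak in these sgNpm1A lists, and their overlap of marks was not computed.

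Class I receptor genes had a promoter peak more often than class II genes. In sgNeg H3K27Ac 21 of 57 class I genes had one (36.8%, 25.5 to 49.8) and 20 of 120 class II genes (16.7%, 11.1 to 24.3). In sgNpm1A H3K27Ac it was 56.1% (43.3 to 68.2) and 28.3% (21.0 to 37.0). For H3K4me3 the intervals overlapped, with 27.3% (17.3 to 40.2) and 21.2% (14.7 to 29.7) in sgNeg, and 10.9% (5.10 to 21.8) and 7.08% (3.63 to 13.4) in sgNpm1A. All class I genes lie in the cluster from OR52B4 to OR52W1 and no class II gene does, so class and location cannot be told apart. By family, 5 of 7 OR56 genes, 8 of 23 OR51 genes and 8 of 27 OR52 genes had a peak in sgNeg H3K27Ac. In the class II families with most members it was 5 of 37 OR5, 3 of 25 OR8, 5 of 25 OR4 and 5 of 16 OR10 genes. The OR10 share, 31.25%, was above that of OR52, 29.6%. In sgNpm1A H3K27Ac the class I families had 4 of 7, 13 of 23 and 15 of 27. The class II families had 11 of 37, 8 of 25, 6 of 25 and 7 of 16, in the same order. The 7 OR56 genes had no H3K4me3 peak in sgNpm1A.

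Clusters were examined without regard to starts. Runs of at least 3 OR genes with neighbours at most 500 kb apart gave 9 clusters with 174 OR genes on GRCh37 and 8 with 163 on GRCh38. Peaks covered 1.98% of the clusters in sgNeg H3K27Ac, against 7.19% of the rest of the chromosome, a ratio of 0.276. The cover was 3.36% against 6.17% in sgNpm1A H3K27Ac (0.545), 1.32% against 2.53% in sgNeg H3K4me3 (0.523) and 0.695% against 1.42% in sgNpm1A H3K4me3 (0.489). The clusters were thus poorer in peaks than the rest of chromosome 11 in all 4 lists. The class I cluster (chr11:4388493-6221416 on GRCh37) had 3.17% and 5.10% of its length under H3K27Ac peaks in sgNeg and sgNpm1A, and 21 and 32 of its 57 OR genes had a promoter peak. The cluster from OR4A16 to OR5AK2 (chr11:55110677-56757318), with 50 OR genes, had 0.420% and 1.41%, with 4 and 8 genes. H3K27Ac cover was higher in sgNpm1A in 8 of the 9 clusters, the exception being the one from OR5AN1 to OR10V1 (4.69% and 2.69%), which holds OSBP and PATL1. H3K4me3 cover was lower in sgNpm1A in 7 of the 8, the exception being that from OR5P2 to OR10A3 (0.390% and 0.508%, with 3 and 2 peaks).

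**Figure D4:**
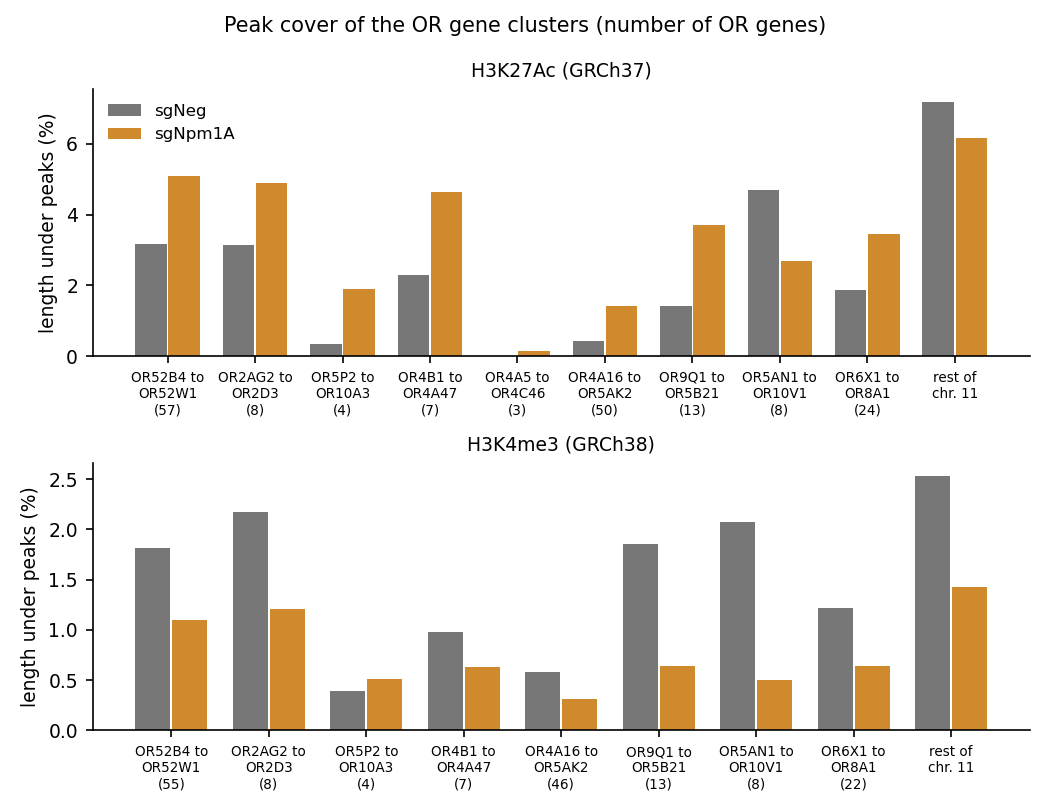
Share of length under peaks (vertical axis, percent) in each OR cluster, named by its first and last gene with the number of OR genes, and in the rest of chromosome 11 (last pair of bars), for sgNeg (grey) and sgNpm1A (orange). H3K27Ac bars are higher in sgNpm1A in 8 of 9 clusters, whereas the rest of the chromosome is lower, 6.17% against 7.19%.

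Other coding genes inside the clusters served as close neighbours. Of 23 such genes on GRCh37, 9 had an H3K27Ac promoter peak in sgNeg and 11 in sgNpm1A. Of 20 on GRCh38, 4 had an H3K4me3 peak in sgNeg and 1 in sgNpm1A. The highest in sgNeg H3K27Ac were OSBP (5.57-fold), PATL1 (5.18), an mRNA decay factor, and TRIM21 (4.88), an intracellular antibody receptor. In sgNeg H3K4me3 the order was again OSBP (13.5-fold), PATL1 (6.66) and TRIM21 (6.24). These exceeded every OR peak of their lists. In sgNpm1A H3K27Ac they were TRIM21 (3.75-fold), TRIM68 (3.48) and TRIM5 (3.11), so that OR51V1 with 3.99 was above them. Against these neighbours the OR share was 0.592, 0.780, 1.16 and 1.67 times as high, in the order of lists above.

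Base composition set OR promoters apart. Within 1 kb of the gene start on GRCh37, OR genes had a median of 38.7% G and C and 12 CG, and the other genes of chromosome 11 had 55.4% and 88. The share of genes with a peak at the gene start was higher in windows richer in G and C. In sgNeg H3K27Ac, 12.7% of the 102 OR genes under 40% G and C had one (7.60 to 20.6), as did 12.7% of the 63 other genes in that range (6.58 to 23.1). From 40 to 45% it was 23.7% of 59 OR genes (14.7 to 35.97) and 38.8% of 98 other genes (29.7 to 48.7). From 45 to 50% it was 53.8% of 13 OR genes (29.1 to 76.8) and 63.8% of 138 other genes (55.5 to 71.3). In sgNpm1A H3K27Ac the order of the groups was the other way round, with 22.5% of OR genes (15.5 to 31.6) and 11.1% of other genes (5.49 to 21.2) under 40%, and 42.4% (30.6 to 55.1) and 23.5% (16.2 to 32.8) from 40 to 45%. The G and C content of OR genes was highest just after the start, 43.3% in the first 500 bases against 37.4% in the flanks and 41.6% for the chromosome. These are the bases where OR peak cover was highest in sgNpm1A H3K27Ac and sgNeg H3K4me3. The part of base composition in the peaks was not tested.

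**Figure D5:**
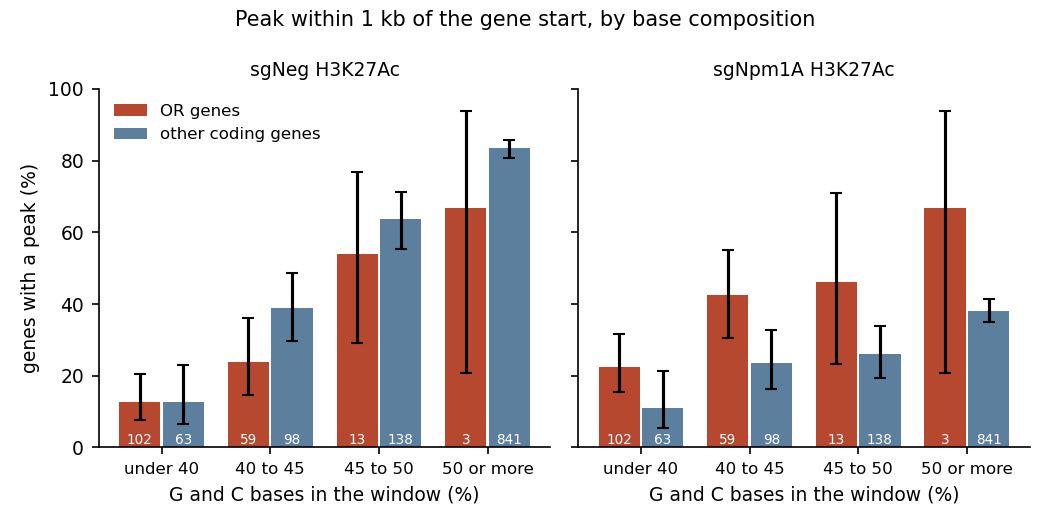
Share of genes with an H3K27Ac peak within 1 kb of the gene start (vertical axis, percent, with 95% Wilson intervals) by G and C content within 1 kb of the gene start (horizontal axis), for OR genes and other coding genes of chromosome 11, with the number of genes at the foot of each bar. Below 40% the sgNeg bars are alike at 12.7%, and the sgNpm1A bars are 22.5% for OR genes and 11.1% for the others.

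Sequence that cannot be placed uniquely was checked in the same windows, since OR genes arose by duplication. The median share of words of 31 bases that occur once in the genome was 98.5% for OR genes and 98.7% for the others. It was under 90% in 43 OR genes (24.3%) and in 264 others (23.2%). Among members that the text names for their peaks, OR52B6 (86.5%), OR52N4 (86.1%), OR51F1 (89.4%) and OR4X2 (89.9%) were below that limit. Reads there may have been split between copies or lost. OR51V1, OR52D1 and OR51G1 were at 100%.

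Promoters of 300 bases were taken from RefSeq (GRCh38.p14) for 135 OR genes, 818 other genes of chromosome 11 and 15842 coding genes in all. Of the OR promoters 27.4% held no CG, against 2.32% of the others and 2.096% of all. The letters TATAAA, on either strand, were in 37.0% of OR promoters, 9.66% of the others and 9.92% of all. The letters TAATTA, a palindrome that homeodomain factors such as LHX2 can bind, were in 25.2%, 3.55% and 3.44%. A match of letters is not a bound site, and letters made of A and T are more common in sequence rich in A and T.

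The genes that olfactory neurons use with the receptors were read from a list of 18. A promoter peak was present for 14 in sgNeg H3K27Ac, 15 in sgNpm1A H3K27Ac, 13 in sgNeg H3K4me3 and 3 in sgNpm1A H3K4me3, beside the shares of all coding genes given above. Over the 18, the median percentile, with 0 for no peak, was 87.4, 65.1, 85.2 and 0. Regulators of OR choice (LHX2, KDM1A, ATF5 and LDB1) were among the highest of the 18 in the sgNeg lists. So was RIC8B, with percentiles of 98.3 for H3K27Ac and 97.4 for H3K4me3. All coding genes with a promoter peak had median percentiles of 96.4 and 97.4 there, so a high rank was not particular to these genes. LHX2, a homeodomain factor of OR enhancers, had 9.28-fold over 15627 bp in sgNeg H3K27Ac and 9.98-fold in sgNeg H3K4me3 (percentiles 99.9 and 99.5). In sgNpm1A it had 2.93-fold for H3K27Ac (percentile 48.6) and no H3K4me3 peak. KDM1A, a histone demethylase, had 5.73-fold in sgNeg H3K27Ac, 3.13 in sgNpm1A H3K27Ac and 11.2 in sgNeg H3K4me3. ATF5, a stress-response factor, had 6.45, 3.27 and 6.03 in the same lists, and LDB1, the cofactor of LHX2, had 4.56, 2.95 and 7.07. None of KDM1A, ATF5 and LDB1 had an H3K4me3 peak in sgNpm1A. EBF1, also on the list, did have one there, 3.56-fold (percentile 43.9). It had 3.96-fold in sgNeg H3K27Ac, 2.75 in sgNpm1A H3K27Ac and 4.99 in sgNeg H3K4me3.

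Of the signalling genes proper, GNAL (the olfactory G protein) and CNGA2 (the main subunit of the olfactory cation channel) had no promoter peak in any list, nor had STOML3. CNGA4, another subunit of that channel, lies on chromosome 11 and had 4.03-fold in sgNeg H3K27Ac (percentile 96.3), 3.27 in sgNpm1A H3K27Ac (81.9), 9.15 in sgNeg H3K4me3 (99.2) and no peak in sgNpm1A H3K4me3. CNGB1, a further subunit, had 2.98-fold (73.2) and 4.19-fold (98.5) for H3K27Ac and no H3K4me3 peak. ADCY3, the adenylyl cyclase of olfactory cilia that other cells also express, had 3.43-fold in sgNeg H3K27Ac, 3.61 in sgNpm1A H3K27Ac and 5.41 in sgNeg H3K4me3. OMP, the marker of mature olfactory neurons, lies on chromosome 11 too and had 3.13-fold (percentile 82.9), 2.71 (12.8) and 3.33 (49.6) in these lists. The transporters RTP1 and RTP2, which carry receptors to the membrane, had at most 3.33-fold in any list.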

How the data were processed

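H3K27Ac and H3K4me3 were mapped by ChIPmentation in OCI-AML3 cells with sgNeg or sgNpm1A, 1 library per guide and mark. Groups came from the sample titles. The submitters' processing notes name bcl2fastq 2.17, Trimmomatic 0.33, Bowtie 1.1.2, MACS2 2.1.0 and deepTools, with no role or order. The authors called peaks per library, and the calling threshold and the use of inputs were not given in the sources used here. The fold enrichment, as deposited, is a ratio of pileup to background. The −log10 p-value and the −log10 q-value, as deposited, were used to filter peaks. The deposited score was not used. The H3K27Ac lists are in broad-peak format and the H3K4me3 lists in narrow-peak format, so widths are not comparable between marks. No shift of cut sites for Tn5 was stated, which would move a peak edge by a few bases. For ChIP-seq the study's methods name hg38, but H3K27Ac peaks reach position 249218478 of chromosome 1, past its end there, so these lists were read on GRCh37. H3K4me3 peaks reach 83201880 on chromosome 17 and were read on GRCh38. No coordinates were converted.

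For GRCh37, all transcript starts of GENCODE version 44 mapped to that build were used. For GRCh38, starts were those of the RefSeq gene record and promoter table, although any transcript start had been planned. Of 171 OR genes of that table, 3 (OR8U8, OR8U9 and OR9G9) were not placed on the chromosome. An overlap was at least 1 bp. Shares have 95% Wilson intervals. Random placement was replaced by counting all window positions. The members, gene lists and tests were chosen with earlier results of these data known. Named members were the 5 with the highest and the 3 with the widest promoter peak of each list, ties included, and the 10 present in the most lists. Others were the olfactory list and the 3 highest neighbours in clusters. A neighbour and a promoter sequence that this would have shown are not reported here. Alternatives changed the window, peak filter, starts, cluster gap and comparison genes. Overlaps were computed in Python 3.11.15 (numpy 2.4.6, pandas 2.3.3, scipy 1.17.1), tested on simulated peaks and checked against bedtools 2.31.1.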

Additional observations from a re-analysis of the deposited data

How the results depend on the processing

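Values below are in the order sgNeg H3K27Ac, sgNpm1A H3K27Ac, sgNeg H3K4me3, sgNpm1A H3K4me3 unless lists are named. There was no replicate to leave out. No paired analysis was possible because each group had 1 library and the labels gave no replicate numbers. Of the values recomputed for the main results, 117 stayed within their interval or within 1.5 times and 135 moved, most under stricter peak filters, which by construction leave fewer peaks, and the rest under other windows, starts, comparison genes or cluster gaps. The lists give no read depth.

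At a q-value under 0.01 the H3K27Ac lists (sgNeg, then sgNpm1A) gave 1.69 and 13.0% of OR genes, 62.9 and 33.3% of the other genes of chromosome 11, 6.30 and 16.4% of OR genes on other chromosomes and 6.85 and 7.93% of all windows. The clusters were covered to 0.409 and 0.938%, 9 olfactory signalling genes were left in sgNpm1A, and 1 OR gene had a peak in both lists, 2 in sgNeg alone and 22 in sgNpm1A alone. The H3K4me3 shares stayed within their intervals.

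At a q-value under 1e-05 the shares were 0.565, 0, 2.38 and 0.595% for OR genes, 35.7, 0.789, 50.6 and 0.980% for the other genes, 0.420, 0, 13.6 and 4.07% for OR genes on other chromosomes and 1.76, 0.203, 4.04 and 0.605% for all windows. A count of 0 of 177 OR genes allows a share of up to 1.69%, and 0 of 168 up to 1.79%. Cluster cover was 0.178, 0, 0.274 and 0.0375%. The median percentile of OR peaks was 3.40 in sgNeg H3K27Ac and 24.3 in sgNeg H3K4me3, and with no OR peak left in sgNpm1A H3K27Ac it had no value there. Olfactory signalling genes numbered 5 in sgNeg H3K27Ac and 0 in both sgNpm1A lists. For H3K27Ac 0 OR genes had a peak in both lists, 1 in sgNeg alone and 0 in sgNpm1A alone, and for H3K4me3 0, 4 and 1.

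At a fold enrichment of at least 4 the shares were 0.565, 0, 1.19 and 1.79% for OR genes, 39.7, 1.75, 49.02 and 2.50% for the other genes, 0.420, 0.840, 9.95 and 8.14% for OR genes on other chromosomes and 2.13, 0.410, 3.03 and 1.78% for all windows. Cluster cover was 0.178, 0.00975, 0.215 and 0.177%. The median percentile of OR peaks was 12.6 in sgNeg H3K4me3 and again had no value in sgNpm1A H3K27Ac. Olfactory signalling genes numbered 7 in sgNeg H3K27Ac, 1 in sgNpm1A H3K27Ac and 0 in sgNpm1A H3K4me3. For H3K27Ac 0 OR genes had a peak in both lists, 1 in sgNeg alone and 0 in sgNpm1A alone, and for H3K4me3 0, 2 and 3.

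With each list limited to its 20000 peaks of lowest p-value the shares were 0.565, 3.39, 0 and 1.19% for OR genes, 49.04, 5.70, 42.9 and 1.52% for the other genes and 3.01, 1.23, 1.45 and 1.05% for all windows, and cluster cover was 0.244, 0.145, 0.0638 and 0.0776%. For H3K27Ac 0 OR genes had a peak in both lists, 1 in sgNeg alone and 6 in sgNpm1A alone, and for H3K4me3 0, 0 and 2. The excess of sgNpm1A over sgNeg at OR genes for H3K27Ac thus kept its direction at a q-value under 0.01 and with lists of equal length, and turned at a q-value under 1e-05 and at a fold enrichment of at least 4, where 1 gene was left.

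With 500 bp on either side of a start, the share of OR genes was 13.0% in sgNeg H3K27Ac and 16.7% in sgNeg H3K4me3, that of the other genes was 79.5, 53.2, 60.2 and 5.97%, and that of OR genes on other chromosomes was 29.4, 33.6 and 24.4% in the first 3 lists. All windows gave 16.4, 11.4 and 4.34% in the last 3. For H3K27Ac 18 OR genes had a peak in both lists and 5 in sgNeg alone, and for H3K4me3 5 had one in both. With 2 kb the other genes gave 87.5, 74.8, 75.6 and 14.8%, OR genes on other chromosomes 44.5% in sgNeg H3K27Ac and 42.5% in sgNeg H3K4me3, all windows 37.0, 28.9 and 11.6% in the last 3 lists, and the olfactory list had 7 genes in sgNpm1A H3K4me3.

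With the midpoint of a peak required inside the window, the other genes gave 77.5 and 57.5% for H3K27Ac and 7.40% in sgNpm1A H3K4me3. With the start of the gene record alone they gave 73.3, 33.9 and 63.99% in the first 3 lists. The ratio of the OR share to theirs then moved from 0.589 to 0.932 in sgNpm1A H3K27Ac, an alternative for the ratio chosen after seeing the data, as was leaving out OR52W1 or OR56A3. Against coding genes inside the clusters the ratio was 0.592, 0.780, 1.16 and 1.67, and against genes outside the chromosome and the family it changed in none of the lists beyond its interval. Windows 20 kb from the OR starts, also chosen after seeing the data, touched a peak in 14.1% of cases in sgNeg H3K27Ac. With a gap of 1 Mb allowed in a cluster, the cover rose to 4.57% in sgNeg H3K27Ac, since more sequence between receptors was then included.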

Other observations

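OR genes of other chromosomes had promoter peaks somewhat more often than those of chromosome 11. Of 238 on GRCh37, 35.7% had an H3K27Ac peak in sgNeg and 41.2% in sgNpm1A. Of 221 on GRCh38, 32.1% had an H3K4me3 peak in sgNeg and 16.7% in sgNpm1A. The share differed between chromosomes. On chromosome 1 it was 50.8% of 65 OR genes in sgNeg H3K27Ac (95% Wilson interval 38.9 to 62.5), 61.5% in sgNpm1A H3K27Ac (49.4 to 72.4), 50.8% of 61 in sgNeg H3K4me3 (38.6 to 62.9) and 29.5% in sgNpm1A H3K4me3 (19.6 to 41.9). All windows of that chromosome gave 37.1, 37.6, 32.0 and 15.0%. On chromosome 7 it was 58.8% of 17 in sgNeg H3K27Ac and 70.6% in sgNpm1A H3K27Ac, with 31.8 and 33.6% for all windows. On chromosome 6 it was 21.1% of 19 and 31.6%, with 20.4 and 19.1% for all windows, and on chromosome 3 it was 16.7% of 12 in both. In sgNpm1A H3K4me3 the OR genes of chromosome 1 exceeded the other coding genes of the chromosome, 29.5 against 17.2%.

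OR pseudogenes of chromosome 11, which lack a working reading frame, gave shares within the intervals of the coding OR genes. Of 192, 40 had an H3K27Ac peak in sgNeg within 1 kb of a start (20.8%, 15.7 to 27.1) and 66 in sgNpm1A (34.4%, 28.02 to 41.3). This set was chosen after seeing the data.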
